A study of Rattus norvegicus with 18 samples.

Results

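The genes described here encode subunits of the mitochondrial respiratory chain and of ATP synthase, with a few of their assembly factors and isoforms. Members were the genes whose symbol begins with Nduf, Sdha to Sdhd, Uqcr, Cox4 to Cox8, Atp5 or Cycs, taken from probe sets that the platform annotation gives exactly 1 symbol. This gave 55 genes, read by 101 probe sets, of 4736 genes and 8740 probe sets tested. Where a gene had several, the one brightest on average over the 18 arrays stood for it. By complex there were 25 genes of complex I, 2 of complex II, 3 of complex III, 15 of complex IV and 10 of ATP synthase. Of the 55, 50 are subunits, tissue isoforms or a paralogue of a subunit, and 3 act in assembly (Ndufaf3, Sdhaf2 and Cox7a2l). The others are the pseudogene Cox6c-ps1 and the ATP synthase inhibitor Atp5if1. Cytochrome c has no member, because its probe set carries several symbols. Subunits encoded by the mitochondrial genome are named outside these patterns and were not used here.

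Expression was measured on 1-colour Affymetrix arrays in 2 established rat thyroid cell lines. FRTL5 is a differentiated thyrocyte line, and FRT/TSHR is a de-differentiated line with the receptor for thyroid-stimulating hormone (TSH), Tshr, as its name states. The groups were FRTL5 basal, FRTL5 at 30 min and at 17 h of bovine TSH at 0.1 U/L, FRT/TSHR basal, and FRT/TSHR at 30 min and at 17 h of TSH at 1 U/L, with 3 biological replicates each. Before this, FRTL5 spent 5 days in 5H medium lacking TSH, FRT/TSHR cells were grown in Coon's modified F12, and all cells spent 12 h without serum before the hormone. Line, dose and medium changed together, so they cannot be told apart, and no untreated group was sampled beside either time.

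The respiratory chain passes electrons from NADH (complex I) and succinate (complex II) through ubiquinone to complex III, then through cytochrome c to complex IV, where oxygen is reduced. Complexes I, III and IV pump protons across the inner membrane, and ATP synthase uses their return to make ATP. In thyroid cells TSH acts mostly through cAMP, and the making of thyroid hormone uses hydrogen peroxide and energy. Most subunits are encoded in the nucleus, and factors such as NRF1, the ETS factor GABP and YY1 are known to bind many of their promoters.

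Promoter windows are shown for the 3 members that passed at an adjusted p under 0.05 (limma) in FRTL5 at 17 h against basal. Each runs from 250 bases before to 50 bases after the gene's start, 5′ to 3′ on the gene's strand, from RefSeq on build GRCr8. Capitals mark matches on either strand to TGCGCA (the core of the NRF1 site), CCGGAAG (ETS) or CCAAT. Cox5b lies at chr9:46417587-46417886 on the plus strand, Ndufs1 at chr9:72073556-72073855 and Ndufv2 at chr9:113157471-113157770, both on the minus strand.
Cox5b: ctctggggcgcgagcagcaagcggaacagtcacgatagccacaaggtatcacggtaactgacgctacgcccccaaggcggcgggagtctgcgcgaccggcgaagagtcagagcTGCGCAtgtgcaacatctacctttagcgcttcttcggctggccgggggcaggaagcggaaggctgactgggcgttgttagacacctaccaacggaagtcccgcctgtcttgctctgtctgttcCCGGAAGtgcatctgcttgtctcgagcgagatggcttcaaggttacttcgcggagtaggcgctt
Ndufs1: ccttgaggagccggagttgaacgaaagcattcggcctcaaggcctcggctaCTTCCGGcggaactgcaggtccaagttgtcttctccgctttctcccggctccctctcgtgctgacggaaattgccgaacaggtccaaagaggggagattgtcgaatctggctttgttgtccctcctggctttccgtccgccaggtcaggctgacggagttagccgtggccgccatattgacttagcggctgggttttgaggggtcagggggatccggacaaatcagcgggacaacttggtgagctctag
Ndufv2: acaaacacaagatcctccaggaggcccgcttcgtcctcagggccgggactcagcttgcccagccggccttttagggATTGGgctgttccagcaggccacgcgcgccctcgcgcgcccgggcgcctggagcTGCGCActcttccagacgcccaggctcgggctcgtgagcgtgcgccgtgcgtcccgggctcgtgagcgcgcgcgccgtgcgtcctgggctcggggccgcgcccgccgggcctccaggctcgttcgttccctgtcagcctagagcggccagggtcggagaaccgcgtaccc

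The Cox5b window holds a TGCGCA match that begins at position -137 from the start and a CCGGAAG match at -14. Ndufs1 holds the ETS letters on the opposite strand at -199, and Ndufv2 holds TGCGCA at -120 and CCAAT on the opposite strand at -174. No 2 matches overlap in these windows. Windows were found for 47 of the 55 members. TGCGCA occurred in 11 of the 47 (23.4%) against 7.24% of all 33469 windows, and CCGGAAG in 10 (21.3%) against 8.75%. The YY1 letters AAGATGGC occurred in 11 (23.4%) against 3.17%, and the cAMP response element TGACGTCA in 2 (4.26%, Cox8a and Ndufb2) against 1.83%. CCAAT occurred in 17 (36.2%) against 37.5%. The members' windows had a median G+C content of 56.0% against 51.7% over all windows, and base composition was not matched. These are letter matches, which describe the windows and show no binding.

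Before the comparisons, 1 array needs naming. FRTL5 basal replicate 3 was low across the members. The complex I genes lay on average 0.54 below their own 18-array means there (mean deviation -0.54, log2), against 0.01 and -0.07 on the other FRTL5 basal arrays. Complex IV genes deviated by -0.39 there and by 0 and -0.12 on the others, while the mean deviation over all probe sets was -0.02. The median SD of the members in that group was 0.281, against 0.173 for all probe sets. FRT/TSHR 30 min replicate 3 was low for complex I in the same way, at -0.36 against 0.11 and -0.05. Both arrays were kept, and results are given without them where they move.

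**Figure D1:**
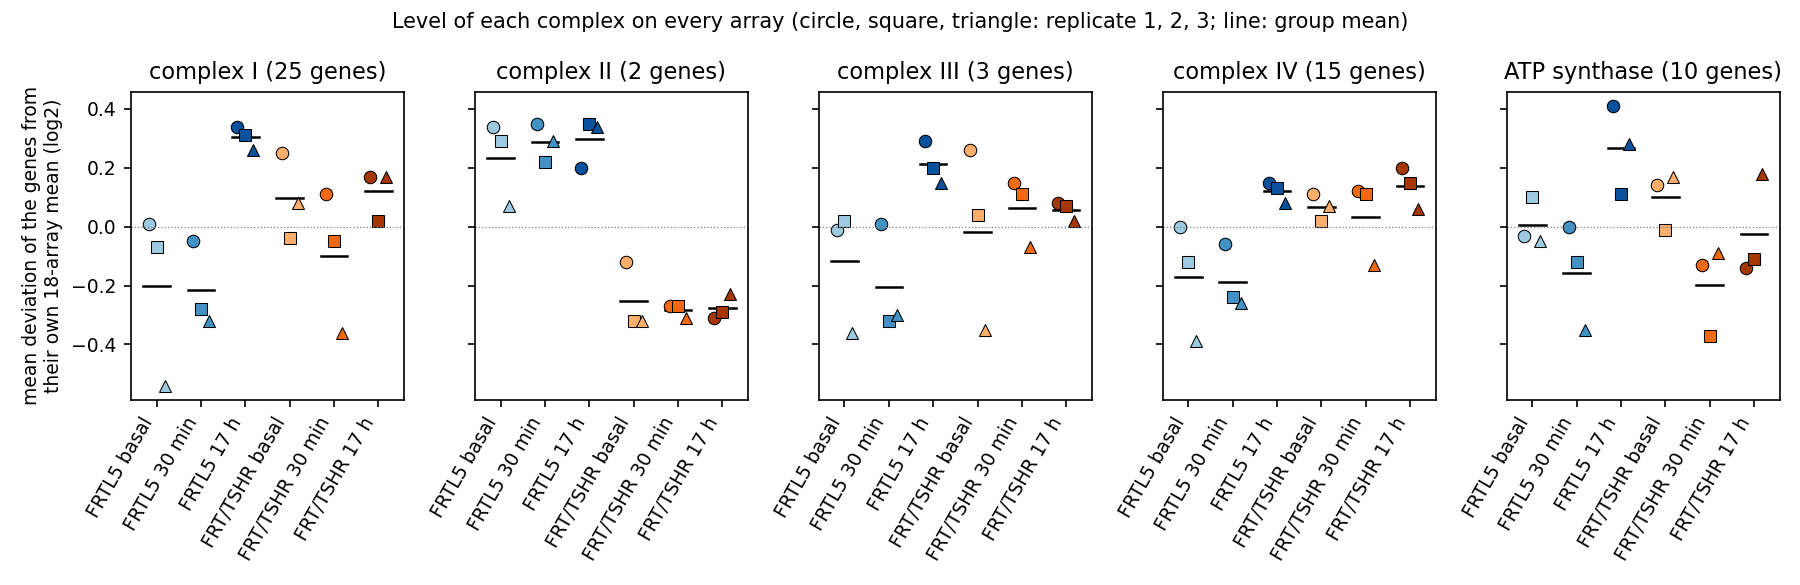
Mean deviation of the genes of each complex from their own mean over the 18 arrays (y axis, log2) on every array, by group (x axis). Symbols mark replicates 1 to 3 and lines the group means. The 3 FRTL5 17 h arrays lie at 0.26 to 0.34 for complex I, above all FRTL5 basal and 30 min arrays, and complex II separates the lines through Sdha, since Sdhaf2 differs the other way.

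The labelled cell types were checked against marker lists. Thyroglobulin (Tg) averaged 11.21 in FRTL5 basal and 4.17 in FRT/TSHR basal, while the receptor Tshr averaged 6.56 and 6.60. Of the thyrocyte markers 6 of 10 were measured, and their mean level per array was 7.90 to 8.96 in FRTL5 and 6.22 to 6.43 in FRT/TSHR. The 7 of 8 measured epithelial markers averaged 5.64 to 5.89 and 8.64 to 8.85, and the 10 mesenchymal markers 5.62 to 5.90 and 6.40 to 6.62. The epithelial Tjp1 went the other way, with 9.20 in FRTL5 basal and 8.33 in FRT/TSHR basal. Of the mesenchymal markers S100a4 (4.87 and 11.33) and Fn1 (6.14 and 8.43) differed most, and Cdh2 went the other way (5.99 and 4.76). Their median difference (FRT/TSHR minus FRTL5) was 0.14 at basal, with 8 higher and 2 lower. At 17 h it was 0.01, with 5 higher and 5 lower. C cell (4 of 6 measured), endothelial (4 of 6), leukocyte (4 of 7) and striated muscle lists (7 of 8) stayed between 4.44 and 5.36 on every array. FRTL5 arrays numbered 1 had higher signal at the 3' than at the 5' end of beta-actin, by 1.13 to 1.22 (log2), and no other array exceeded 0.28. Those arrays stand in all 3 FRTL5 groups. Expression here is RNA per array after normalization, and the part of cell state in any line difference was not tested.

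The first comparison was of FRTL5 at 17 h of TSH with FRTL5 basal, without an untreated group at 17 h. Of the 25 complex I genes 24 had higher means at 17 h than at basal, with a median difference of 0.53 (log2). That median rests in part on the low FRTL5 basal replicate 3. Without that array it was 0.30, against 0.25 for ATP synthase, 0.22 for complex IV and 0.23 for complex III. Of all 55 members 51 were higher, with a median of 0.36, against 53.2% of all 8740 probe sets and a median of 0.01. Only Ndufs1, Ndufv2 and Cox5b passed at an adjusted p under 0.05 (limma, Benjamini-Hochberg over all probe sets), and no member passed lower. The 3 called are 5.45% of the members, while 1.64% of all probe sets were called higher. Among 2681 genes with a mean above the median of all probe set means, 79 were called higher and 91 lower, 6.34% in all. At an unadjusted p under 0.05, 20 members were higher against 5.72% of all probe sets, and none was lower. In 18 members every 17 h array lay above every basal array, which held for 7.6% of all probe sets.

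Ndufv2, an iron-sulphur subunit of the NADH-oxidising module, measured 8.85, 9.04 and 8.16 on the basal arrays and 9.47, 9.69 and 9.49 at 17 h (log2 expression). It rose by 0.87 ± 0.18 (SE), 1.82-fold, with an adjusted p of 0.0141. Its groups did not overlap, and the lowest basal array was replicate 3. Ndufs1, the large iron-sulphur subunit of that module, measured 4.86, 4.88 and 4.49 at basal and 5.03, 5.82 and 5.70 at 17 h. It rose by 0.78 ± 0.18, with an adjusted p of 0.0204. Its array numbered 1 at 17 h stayed close to the basal range, and the other 17 h arrays lay well above it.

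Cox5b, a nuclear-encoded subunit of complex IV, measured 9.25, 9.83 and 8.62 at basal and 9.98, 10.11 and 10.11 at 17 h. It rose by 0.83 ± 0.20, with an adjusted p of 0.0297. The 17 h arrays were tight and the basal arrays wide, with SDs of 0.07 and 0.60 (n = 3). Its other probe set gave 0.42 ± 0.28 with an adjusted p of 0.647.

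These calls lean on few arrays. Without FRTL5 17 h replicate 2 none of the 3 passed, with limma adjusted p-values of 0.102 for Cox5b, 0.112 for Ndufs1 and 0.0659 for Ndufv2. Without FRTL5 17 h replicate 3 only 1 member passed. Without FRTL5 basal replicate 3, 50 of 55 members were still higher, the median fell to 0.23, and 2 members passed, of which 1 was among the 3. Cox5b then gave 0.53 and Ndufs1 0.65, with limma adjusted p-values of 0.075 and 0.0944, while Ndufv2 passed. Cox5b passed in 1 of the 6 fits that leave out an array, that without FRTL5 basal replicate 2, Ndufs1 in 3 and Ndufv2 in 5. Without the FRTL5 arrays numbered 1, Ndufs1 and Ndufv2 passed and Cox5b did not (0.108).

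Replicate numbers were taken to pair the arrays within each line, as judged from how arrays of the same number deviate together. In FRTL5 this was clear only for number 1, whose arrays also share the higher 3' signal of beta-actin. The fit with the number as a block is therefore given only beside the main fit. With the block 15 members passed, all higher, against 4.15% of all probe sets called higher. Beside the 3 above these were Ndufa5, Ndufa8, Ndufab1, Ndufb5, Ndufb6, Ndufb8, Ndufb10 and Ndufs4 of complex I, Uqcrfs1 of complex III, Ndufa4 and Cox6a1 of complex IV, and Atp5pd of ATP synthase. Other probe sets of Ndufb8 gave 0.15, -0.05 and -0.18, that of Ndufb5 0.16, and those of Ndufs4 0.18 and 0.19. None of these passed with the block. Other probe sets of Ndufab1 (0.95), Ndufb6 (0.44), Cox6a1 (0.72) and Uqcrfs1 (0.62) passed with it. Further ones of Ndufab1 (0.16), Cox6a1 (0.35) and Uqcrfs1 (0.27), and that of Cox5b (0.42), did not. Within the numbered pairs the median difference of the members was 0.28, 0.23 and 0.54, and 36 members were higher in all 3 pairs, against 18.9% of all probe sets.

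Within complex I the 4 core subunits had a median difference of 0.58 and the 20 accessory subunits 0.55. Ndufs8, a core iron-sulphur subunit, gave 0.38 ± 0.15 (limma adjusted p = 0.245), and Ndufs7 gave 0.13 ± 0.15. Ndufab1, the mitochondrial acyl carrier protein, had the largest difference of all members, 1.60 ± 0.45, with an adjusted p of 0.07, or 0.00657 with the block. Its values were 9.65, 7.79 and 7.86 at basal and 10.31, 9.92 and 9.88 at 17 h, so that basal array 1 lay near the 17 h arrays and the other basal arrays far below. Its other probe sets gave 0.95 and 0.16. The Ndufb and Ndufc genes, subunits of the membrane arm, ranged from 0.20 ± 0.25 for Ndufc2 to 0.85 ± 0.40 for Ndufb9, with Ndufb10 at 0.61 ± 0.22, Ndufb6 at 0.58 ± 0.22 and Ndufb5 at 0.57 ± 0.19. Ndufv3, an accessory subunit of the NADH-oxidising module, was the 1 complex I gene with a lower mean, at -0.18 ± 0.15. Its other, dimmer probe set gave -0.59 ± 0.18 (limma adjusted p = 0.0998, and 0.0105 with the block).

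In complex IV 14 of 15 genes had higher means, with a median of 0.26, or 0.34 over its 9 ubiquitous subunits. Ndufa4, once counted in complex I and now placed in complex IV, measured 9.41, 9.44 and 8.97 at basal and 9.81, 9.69 and 9.67 at 17 h. Its groups did not overlap, and it gave 0.45 ± 0.13 (limma adjusted p = 0.0728, and 0.0128 with the block). The tissue isoforms Cox4i2, Cox6a2 and Cox8b, the paralogue Ndufa4l2 and the pseudogene Cox6c-ps1 had a median of 0.20, and none passed. In complex III the Rieske protein gene Uqcrfs1 gave 0.46 ± 0.15 (adjusted p = 0.148, and 0.0388 with the block) and Uqcr11 gave 0.36 ± 0.25. In complex II the flavoprotein gene Sdha gave 0.33 ± 0.17, and Sdhaf2, which helps attach its flavin, gave -0.20 ± 0.13.

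In ATP synthase 9 of 10 genes had higher means, with a median of 0.23, which became 0.10 when replicate 1 of FRTL5 17 h was left out and 0.35 when its replicate 2 was. The 4 genes of the peripheral stalk, Atp5pb, Atp5pd, Atp5pf and Atp5po, had a median of 0.37, against 0.12 for the 5 of the F1 part. Atp5pd gave 0.67 ± 0.22 (limma adjusted p = 0.122, and 0.012 with the block), and Atp5f1d gave 0.37 ± 0.17. The catalytic genes Atp5f1a and Atp5f1b gave 0.10 ± 0.25 and 0.14 ± 0.15. The inhibitor gene Atp5if1 gave 0.17 ± 0.13.

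**Figure D2:**
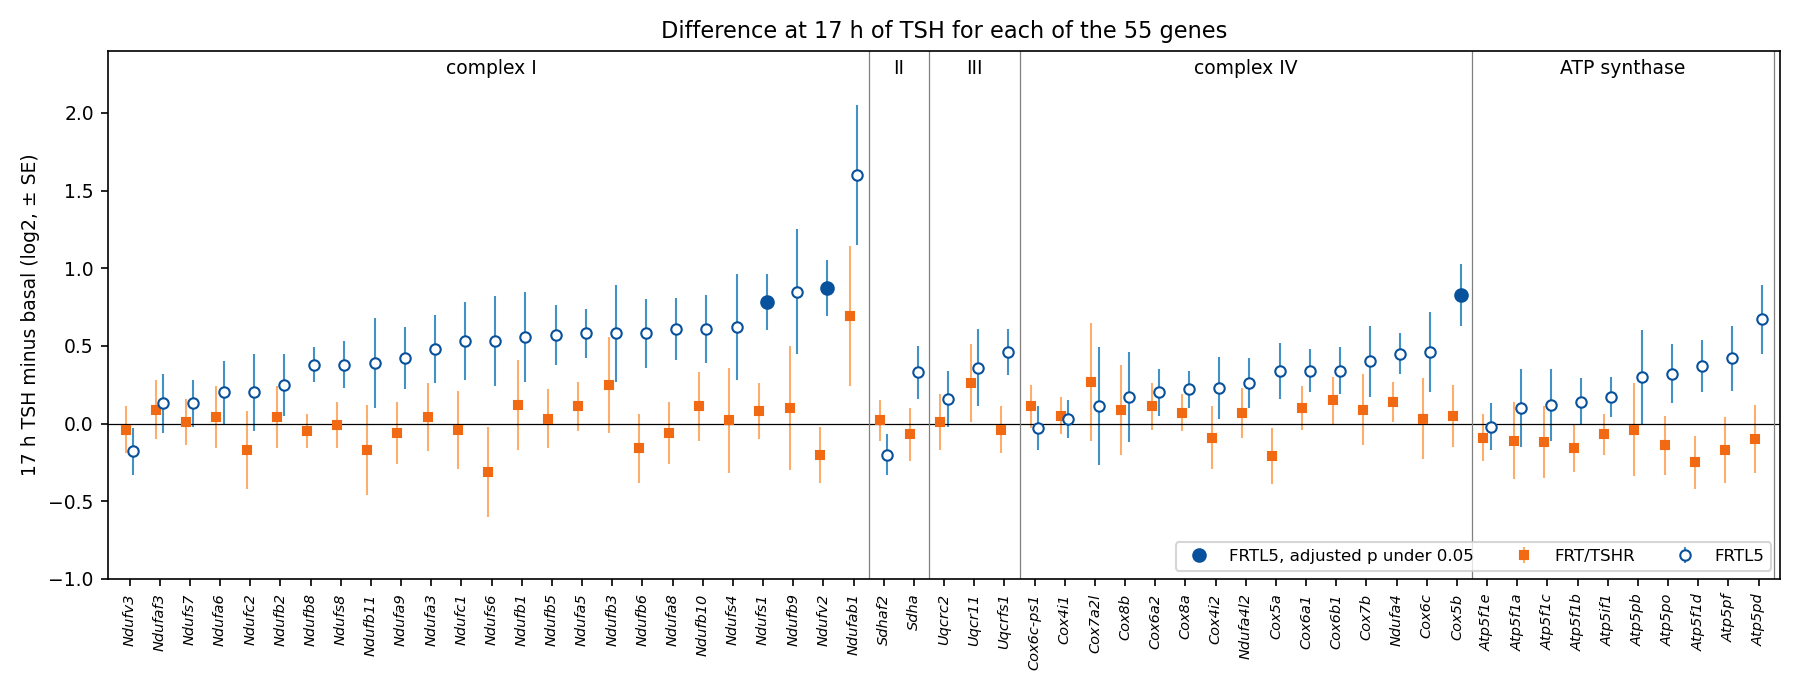
Difference between 17 h of TSH and basal (y axis, log2, bars are SE) for each of the 55 genes (x axis), ordered within complexes by the FRTL5 difference. Circles are FRTL5, filled where the adjusted p is under 0.05, and squares are FRT/TSHR. FRTL5 values lie above 0 for 51 genes, and FRT/TSHR values scatter around 0 with a median of 0.02.

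At 30 min in FRTL5 no member passed, and 0.24% of all probe sets were called. At an unadjusted p under 0.05, 3 members were lower, against 1.04% of all probe sets, and none was higher. They were Cox4i1 (-0.28 ± 0.12), Cox7b (-0.54 ± 0.23) and Ndufb8 (-0.28 ± 0.11). The median difference was -0.06, with 21 members higher and 34 lower. All 10 ATP synthase genes had lower means, between -0.33 and -0.02, with a median of -0.16. Without FRTL5 30 min replicate 3 the median was -0.09, with 6 lower, and without FRTL5 basal replicate 2 it was -0.04, with 8 lower. Without FRTL5 basal replicate 3 the median over the members was -0.17, with 45 lower.

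In FRT/TSHR no member and no other probe set passed at either time (0% called at 30 min and 0% at 17 h, limma). At 30 min 45 of 55 members had lower means, with a median of -0.14 against 0.03 for all probe sets. The ATP synthase genes were lowest as a group, all 10 below basal with a median of -0.32, and 23 of 25 complex I genes lay below with a median of -0.21. Without FRT/TSHR 30 min replicate 3 the complex I median was -0.09, and without FRT/TSHR basal replicate 1 it was -0.14. The ATP synthase median was -0.20 without FRT/TSHR 30 min replicate 2. At an unadjusted p under 0.05, 1 member was lower against 1.43% of all probe sets, namely Atp5f1d at -0.49 ± 0.17. It measured 9.78, 9.77 and 9.60 at basal and 9.62, 8.77 and 9.29 at 30 min, so that the groups overlapped. In 4 members all 30 min arrays lay below all basal arrays, which held for 2.4% of all probe sets. Without FRT/TSHR 30 min replicate 3 the median was -0.07, with 35 members lower, and after quantile normalization it was -0.06, with 37 lower.

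At 17 h in FRT/TSHR 30 members were higher and 25 lower, with a median of 0.02, and 0 had an unadjusted p under 0.05. All 10 ATP synthase genes had lower means (median -0.11, and -0.07 to -0.23 when each array was left out, with 7 to 10 lower), and 13 of 15 complex IV genes had higher means (median 0.09). Atp5f1d then measured 9.47, 9.42 and 9.52, all below its basal arrays, a difference of -0.25 ± 0.17. It was the 1 member with that pattern, which held for 233 of 8740 probe sets. Both TSH times of a line share that line's basal arrays.

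The 17 h effect was then compared between lines, as the FRT/TSHR effect minus the FRTL5 effect. No member passed (0.789% of all probe sets did), although 50 of 55 values lay below 0, with a median of -0.37 against 0 for all probe sets. At an unadjusted p under 0.05, 10 members lay below 0, against 3.99% of all probe sets. The median was -0.48 for complex I, -0.32 for ATP synthase and -0.19 for complex IV. Without FRTL5 basal replicate 3 these were -0.28, -0.31 and -0.14, so the order of complex I and ATP synthase turned. Ndufv2 had the lowest single value, -1.06 ± 0.26 (limma adjusted p = 0.0684). With the replicate block Ndufv2 passed (adjusted p = 0.017) and so did Ndufb6 (-0.74, adjusted p = 0.0166), where 2.07% of all probe sets were called below 0. Without FRTL5 basal replicate 3 the median was -0.20 and 48 members lay below 0. For the 30 min effect no member passed (0.0343% of all probe sets did), none had an unadjusted p under 0.05, and the median was -0.13, or 0.03 without FRTL5 basal replicate 3.

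The basal lines were compared next. Of the 55 members 11 were higher and 4 lower in FRT/TSHR than in FRTL5, where 13.3% of all probe sets were called higher and 12.2% lower, 25.5% in all. The 15 are 27.3% of the members, close to that background. Of the members, 52 have a mean above the median of all probe set means. Among all genes above it 40% were called, so the members were called less often than genes of such signal. With the replicate block 19 members passed, where 29.7% of all probe sets did. After quantile normalization the split was 8 higher and 5 lower. Over the members the median difference was 0.21, against -0.04 for all probe sets. Without FRTL5 basal replicate 3 it was 0.14, with 9 higher and 4 lower.

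The member furthest below was Sdha, the flavoprotein that binds succinate. It measured 8.54, 8.32 and 7.68 in FRTL5 basal and 7.10, 6.79 and 6.98 in FRT/TSHR basal. It was lower by 1.22 in log2 (-1.22 ± 0.17, limma adjusted p = 4.27e-05), a 2.33-fold difference. Even the low array of FRTL5, replicate 3, lay above all FRT/TSHR arrays. Sdhaf2 differed by 0.25 ± 0.13 in the other direction and did not pass.

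Ndufa4 differed most in the other direction. It measured 9.41, 9.44 and 8.97 in FRTL5 basal and 10.48, 10.29 and 10.71 in FRT/TSHR basal, higher by 1.22 ± 0.13, 2.34-fold, with a limma adjusted p of 2.05e-06. The lines were apart on every array. Cox5b was higher by 0.75 ± 0.20, with FRT/TSHR basal values of 10.14, 9.97 and 9.86, all above the highest FRTL5 basal array. Cox6a1, the ubiquitous isoform of its subunit, was higher by 0.71 ± 0.14, and its other probe sets gave 1.34 and 0.89, both passing. Cox4i1, a subunit with regulatory roles, was lower, by -0.39 ± 0.12, but its other probe sets gave 0.02 and -0.08.

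In complex I Ndufa5, an accessory subunit of the matrix arm, measured 8.09, 8.21 and 7.89 in FRTL5 basal and 9.21, 9.01 and 9.24 in FRT/TSHR basal. It was higher by 1.09 ± 0.16 (limma adjusted p = 7.7e-05), with no overlap. Ndufaf3, an assembly factor of complex I, measured 6.36, 6.52 and 6.71 against 7.71, 7.59 and 7.42. It was higher by 1.04 ± 0.19 (limma adjusted p = 0.00063), while its other probe sets gave 0.60 and -0.22 and did not pass. Ndufs1 (0.78 ± 0.18), Ndufb5 (0.63 ± 0.19), Ndufa6 (0.59 ± 0.20) and Ndufv2 (0.56 ± 0.18) were also higher. Ndufv3 was the complex I gene that was lower, by -0.86 ± 0.15.

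In complex III Uqcrfs1 measured 9.39, 9.51 and 8.78 in FRTL5 basal and 10.07, 9.84 and 9.91 in FRT/TSHR basal, higher by 0.71 ± 0.15 (limma adjusted p = 0.00222). The core gene Uqcrc2 gave -0.51 ± 0.18 and did not pass. In ATP synthase Atp5pd measured 8.78, 8.95 and 8.34 against 9.47, 9.21 and 9.54, higher by 0.72 ± 0.22. Atp5f1e, the smallest F1 subunit, measured 10.76, 11.29 and 11.22 against 10.80, 10.57 and 10.57, lower by -0.44 ± 0.15, and its lines overlapped at FRTL5 replicate 1. Atp5if1 gave 0.04 ± 0.13.

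Leaving out each array in turn, 9 of the 15 calls held in all 6 fits: Cox5b, Cox6a1, Ndufa4, Ndufa5, Ndufaf3, Ndufs1, Ndufv3, Sdha and Uqcrfs1. Ndufa6, Ndufb5, Ndufv2 and Atp5pd each lost the call without FRTL5 basal replicate 3, with limma adjusted p-values of 0.161, 0.111, 0.173 and 0.115. Atp5f1e lost it without FRTL5 basal replicate 2 (0.166) and Cox4i1 without FRTL5 basal replicate 1 (0.0757), among others.

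**Figure D3:**
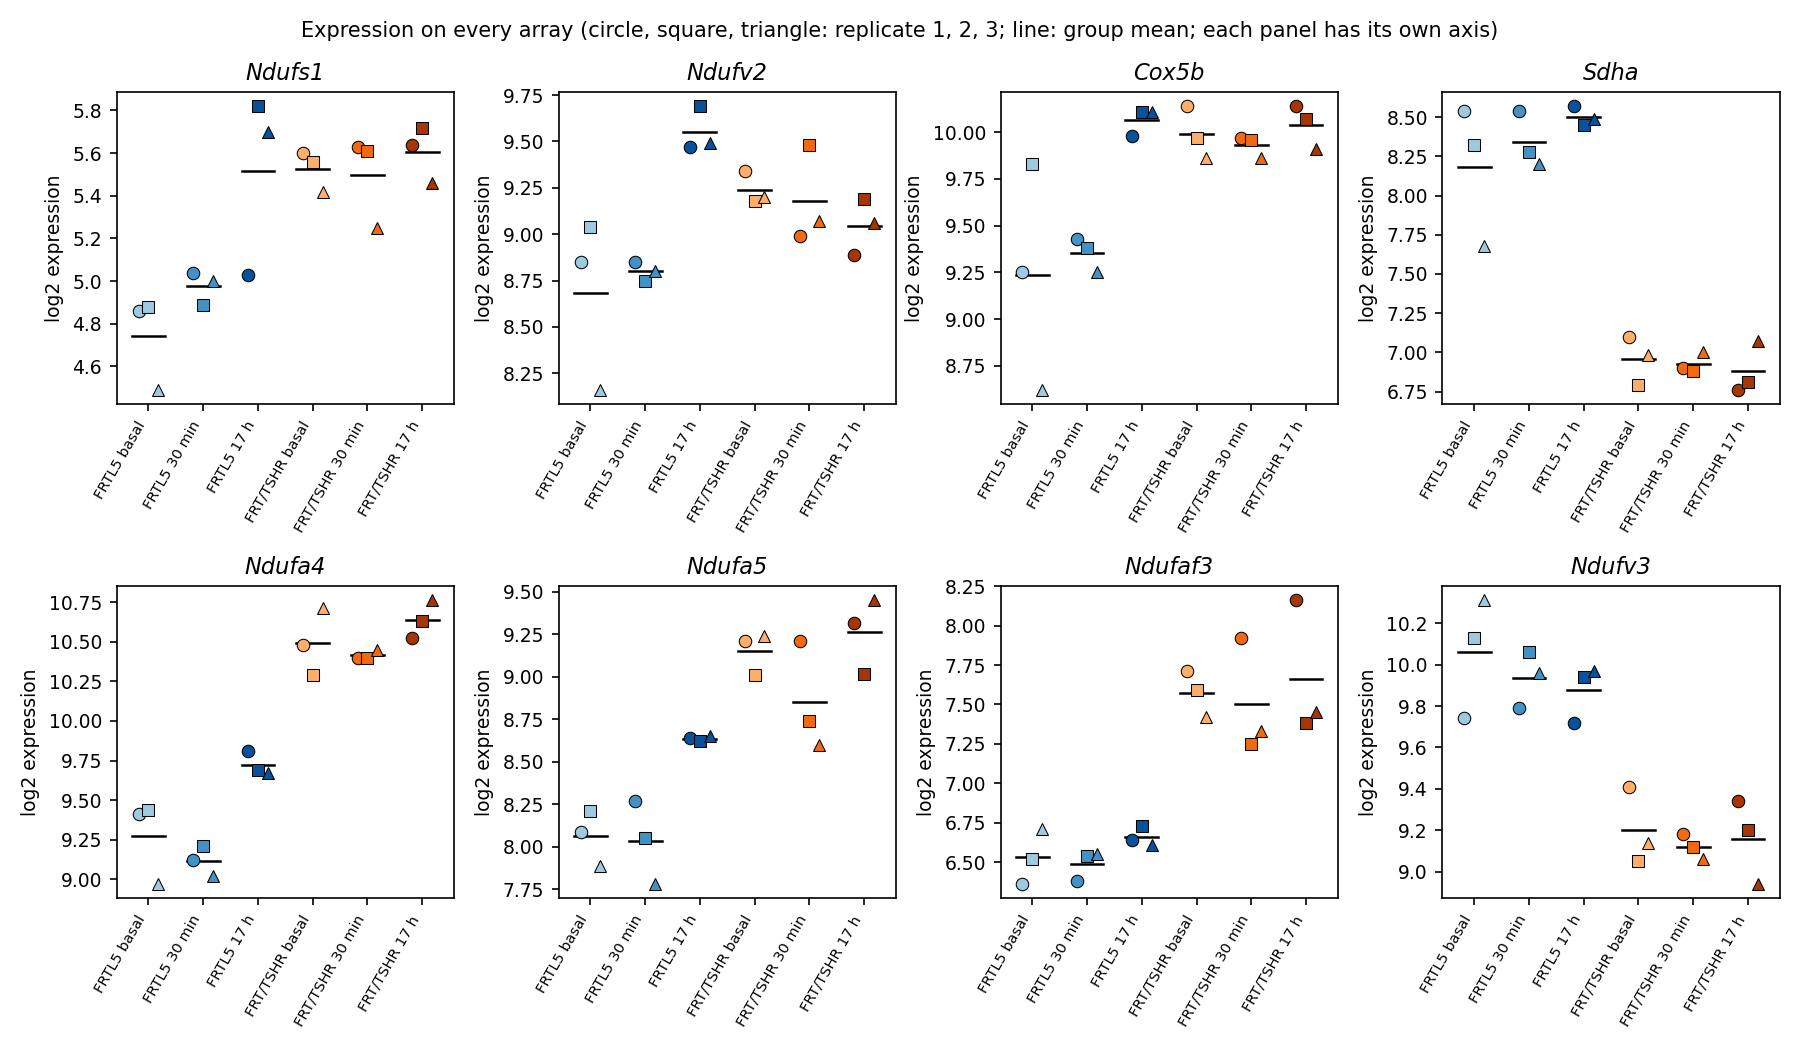
Log2 expression on every array (y axis, its own range in each panel) of 8 genes named in the text, by group (x axis), with symbols for replicates 1 to 3 and lines for group means. Ndufs1, Ndufv2 and Cox5b are higher at 17 h in FRTL5, and Sdha, Ndufa4, Ndufa5, Ndufaf3 and Ndufv3 separate the lines in all 3 conditions.

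After 17 h of TSH the lines were compared again. FRT/TSHR was then higher in 5 members and lower in 7, where 11.5% of all probe sets were called higher and 8.94% lower, 20.4% in all. The members called are 21.8%, against 33.3% of genes with a mean above the median of all probe set means. With the replicate block 18 members passed, where 25.1% of all probe sets did. After quantile normalization the split was 3 and 13. The median over the members was -0.12, against -0.05 for all probe sets, with 40 members lower. Without FRT/TSHR 17 h replicate 2 only 7 members passed. The calls of Sdha, Ndufa4, Ndufaf3 and Ndufv3 held in all 6 fits that leave out an array.

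Sdha again lay furthest below, with 8.57, 8.45 and 8.49 in FRTL5 17 h and 6.76, 6.81 and 7.07 in FRT/TSHR 17 h, a difference of -1.62 ± 0.17 (limma adjusted p = 2.51e-06). Ndufaf3 (1.00 ± 0.19), Ndufa4 (0.91 ± 0.13), Ndufa5 (0.62 ± 0.16), Cox6a1 (0.47 ± 0.14) and Sdhaf2 (0.47 ± 0.13) were higher. Ndufc2, a membrane-arm subunit (-0.77 ± 0.25), Ndufv3 (-0.72 ± 0.15), Uqcrc2 (-0.66 ± 0.18), Atp5po, which joins the stalk to F1 (-0.65 ± 0.19), Atp5f1e (-0.51 ± 0.15) and Cox4i1 (-0.37 ± 0.12) were lower. All 10 ATP synthase genes had lower means in FRT/TSHR, with a median of -0.26. Ndufs1, Cox5b and Ndufv2, which rose in FRTL5, gave 0.09, -0.03 and -0.50 here and did not pass.

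**Figure D4:**
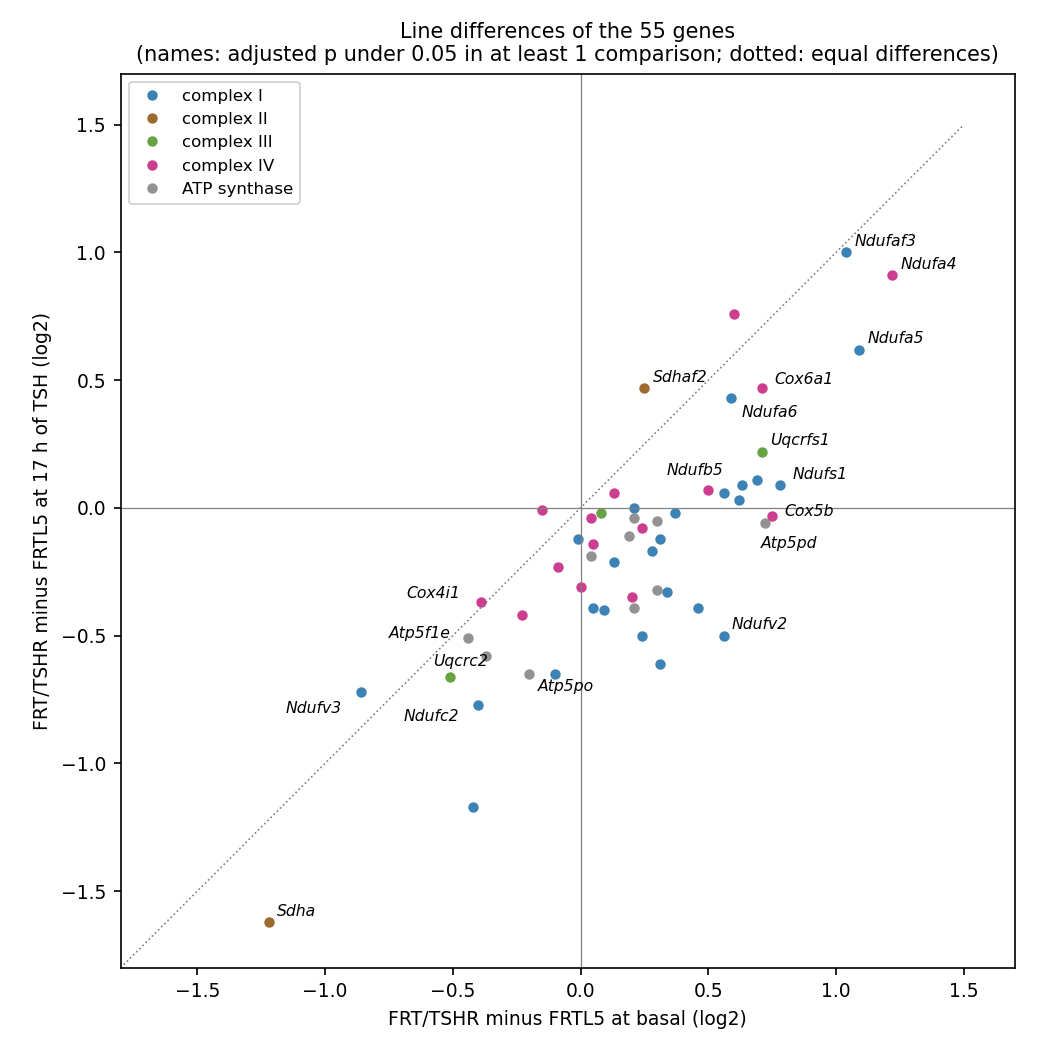
FRT/TSHR minus FRTL5 at basal (x axis, log2) and at 17 h of TSH (y axis, log2) for the 55 genes, coloured by complex. The dotted line marks equal differences and names mark genes that passed in at least 1 comparison. Most points lie below the dotted line, and Sdha lies furthest from the origin, at -1.22 and -1.62.

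Some members have probe sets that disagree between the basal lines. For Cox8a, a complex IV subunit, the representative gave -0.09 ± 0.12, while others gave 0.76 ± 0.13 and 0.38 ± 0.11 and passed. For Ndufb8 the representative gave 0.31 ± 0.11 and did not pass, while another gave -0.65 ± 0.13 and passed. For Cox6c the representative gave 0.50 ± 0.26, while the other, much dimmer, gave -0.81 ± 0.28 and passed. For Ndufb6 the values were 0.24 ± 0.22 and -0.41 ± 0.14, of which the second passed. Ndufs8 and Ndufc1 had representatives at 0.37 and 0.69 that did not pass and other probe sets at 1.02 and 1.07 that did. Some called members had another probe set that went the same way without passing. These gave 0.17 for Ndufb5, 0.31 for Ndufa6, -0.23 for Atp5f1e, 0.59 for Cox5b and -0.47 for Ndufv3. At 17 h of TSH the other probe set of Cox7a2l, which acts in supercomplex assembly, gave 0.94 ± 0.24 and passed, while the representative gave 0.76 ± 0.38. Of members called between the lines at that time, other probe sets that did not pass gave -0.22 for Atp5f1e and -0.53 for Atp5po. Those of Cox4i1 gave -0.34 and -0.13, of Cox6a1 0.65 and 0.42, and of Ndufaf3 0.73 and -0.11, also without passing.

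Other mitochondrial genes were read from fixed lists. Their counts stand against 1.64% of all probe sets called higher and 1.92% lower in FRTL5 at 17 h, 13.3% and 12.2% between the basal lines, and 11.5% and 8.94% between the lines at 17 h. With the replicate block in FRTL5 at 17 h, the background of higher calls is 4.15%. Of TCA cycle and pyruvate dehydrogenase genes 12 of 19 were measured. In FRTL5 at 17 h, 2 of the 12 rose, Mdh2 (0.60 ± 0.15) and Dlst (0.74 ± 0.18), and the list's median was 0.22. With the block Dlat passed as well (0.41 ± 0.31, where the SE is that of the fit without the block). Between the basal lines 3 were higher and 4 lower, and malate dehydrogenase (Mdh2) was higher by 1.08 ± 0.15 while the isocitrate dehydrogenase subunit Idh3g was lower (-0.65 ± 0.14). At 17 h none was higher and 4 were lower, with Dlst at -1.65 ± 0.18. Of 9 measured import and folding genes 2 rose at 17 h, the chaperone Hspa9 (1.24 ± 0.31) and the co-chaperonin Hspe1 (0.63 ± 0.16), with a median of 0.22. With the block its partner Hspd1 passed as well (0.91 ± 0.36, again with the SE of the fit without the block). Between the basal lines 5 of them were higher in FRT/TSHR and none lower, with the translocase subunit Timm17a at 0.80 ± 0.12 and the processing peptidase subunit Pmpcb at 0.94 ± 0.17. At 17 h 2 were higher and 1 lower, the prohibitin Phb2 (-0.65 ± 0.14).

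Of 11 measured carriers and uncoupling genes none passed in FRTL5 at 17 h, and the ADP/ATP carriers Slc25a5 and Slc25a4 gave 0.72 ± 0.20 (limma adjusted p = 0.0629) and 0.48 ± 0.15 (adjusted p = 0.103). With the block 3 of the 11 passed, Slc25a5 (adjusted p = 0.00217), Slc25a4 (0.00739) and the outer-membrane channel Vdac1 (0.66 ± 0.27, 0.00137). Slc25a4 averaged 8.67 in FRTL5 basal and 4.07 in FRT/TSHR basal, a difference of -4.60 ± 0.15 (adjusted p = 1.72e-12), far beyond that of any member. Ucp2, of the uncoupling protein family, was also lower in FRT/TSHR, by -1.41 ± 0.16, and 1 gene of the list was higher. At 17 h 3 of the list were lower and none higher, with Slc25a4 at -5.00 ± 0.15 and Ucp2 at -1.31 ± 0.16.

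Of 7 measured genes of other electron donors and assembly none passed at 17 h in FRTL5, where cytochrome c1 (Cyc1), a complex III subunit outside the symbol rule, gave 1.02 ± 0.34 (limma adjusted p = 0.145, and 0.0069 with the block) and Etfdh gave 0.37 ± 0.17. Between the basal lines 2 were higher, Cyc1 (1.06 ± 0.34) and Dhodh of pyrimidine synthesis (0.80 ± 0.20), and 1 was lower, Gpd2, which feeds electrons from glycerol phosphate (-1.05 ± 0.17). At 17 h Dhodh was higher (0.83 ± 0.20) and Gpd2 lower (-1.06 ± 0.17). Of 5 measured biogenesis regulators none passed at 17 h in FRTL5, where Creb1 gave 0.25 ± 0.14 and Myc 0.20 ± 0.24. At 30 min in FRTL5 Myc passed, higher by 1.39, where 0.24% of all probe sets were called. The transcription factors Myc (2.64 ± 0.24) and Hif1a (1.49 ± 0.27) were higher in FRT/TSHR basal, and again at 17 h (2.55 ± 0.24 and 1.62 ± 0.27). Of 8 measured redox genes 1 fell at 17 h in FRTL5, the transhydrogenase Nnt (-0.75 ± 0.13), which was also lower in FRT/TSHR basal (-1.10 ± 0.13), and Prdx3 gave 0.54 ± 0.20. Glutathione peroxidase Gpx1 was higher in FRT/TSHR basal (2.50 ± 0.23). At 17 h Gpx1 was higher (2.18 ± 0.23) and Nnt (-0.55 ± 0.13) and Prdx3 (-0.80 ± 0.20) were lower in FRT/TSHR.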

How the data were processed

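Total RNA (10 µg) from 18 cultures was labelled and hybridised to 1-colour Affymetrix arrays, per the labels. The deposited table holds log2 expression values per probe set that the authors made with RMA, per the submitters' processing notes. The RMA version is not given in the sources used here, and detection above background was not measured. RMA normalizes across arrays, so values are relative within the set. The table has 8799 probe sets. Setting aside 59 controls gave 8740 for testing, and low values were not filtered. Symbols came from the platform annotation, and 7 probe sets that match the symbol rule but carry several symbols were kept apart.

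Means of the 6 groups were fitted to all 18 arrays with limma 3.58.1 in R 4.3.3 (lmFit, eBayes, 12 residual and 3.597 prior degrees of freedom). Two-sided p-values received Benjamini-Hochberg adjustment over 8740 probe sets in each of 8 comparisons, with calls at an adjusted p below 0.05. Errors are SE of this fit unless stated, also where a call or p-value with the replicate block stands beside them. The script was tested on simulated data. Precision is limited by having 3 arrays a group.

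The replicate numbers come from the labels. Within each line, arrays of the same number deviated together from their group means, with correlations of at least 0.148 in FRTL5 and 0.158 in FRT/TSHR. Numbers were therefore taken to pair arrays within a line. In FRTL5 this is clear only for number 1 (0.69 to 0.798). Numbers 2 (0.233 to 0.474) and 3 (0.148 to 0.409) lie below the highest correlation between different numbers, 0.628 (median -0.502). In FRT/TSHR different numbers gave at most -0.0296. Between lines, correlations of the same number were 0.188 to 0.356 for number 1, but reached down to -0.116 and -0.217 for numbers 2 and 3.

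The members and lists were chosen with earlier results of these data known. Named members were those that passed, the 2 of each complex with the smallest p, Atp5if1, and members whose probe sets disagree, with every array's value for up to 2 passing members a complex in FRTL5 at 17 h and between basal lines. Of each other list the 2 genes with the smallest p in each comparison were taken. Any other named gene, such as Ndufab1 in FRTL5 at 17 h, Ndufs7 or Atp5f1a, was chosen after its values were seen. Alternatives were the replicate block, only the arrays compared, arrays numbered 1 left out, 2 other scalings, a filter on low signal, an intensity trend with a robust prior, the mean of a gene's probe sets, and each array left out. Leaving out the 6 arrays numbered 1 was added after seeing the data.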

Additional observations from a re-analysis of the deposited data

Results flagged for a closer look

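For Atp5f1d, the delta subunit of the F1 part, the 17 h arrays lay on opposite sides of basal in the lines, although neither change passed (0.37 in FRTL5 with a limma adjusted p of 0.369, and -0.25 in FRT/TSHR with an adjusted p of 1). The gene was picked because all 3 FRTL5 arrays lay above basal and all 3 FRT/TSHR arrays below, so that pattern is no support. In FRTL5 all 17 h arrays lay above basal in 18 members and in 664 of 8740 probe sets. In FRT/TSHR all lay below basal in 1 member and in 233 probe sets. The difference of the effects (FRT/TSHR minus FRTL5) was -0.62 ± 0.24 in log2, with a limma adjusted p of 0.407. The difference between lines therefore did not pass its own test.

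Probe sets with several symbols were outside the members, and some passed. The probe set shared by Atp5mc1 and Atp5mc1l1, which make the rotating c ring of ATP synthase, was higher at 17 h in FRTL5 by 0.66 (limma adjusted p = 0.0353). At 17 h of TSH it was lower in FRT/TSHR than in FRTL5, by -0.83 (limma adjusted p = 0.00137). The probe set shared by Ndufs5 and Ndufs5-ps2 was higher in FRT/TSHR basal than in FRTL5 basal by 0.44 (limma adjusted p = 0.0204). The probe set that includes cytochrome c (Cycs) gave 0.65 in FRTL5 at 17 h and 1.08 between the basal lines, and passed in neither (limma adjusted p = 0.599 and 0.0566).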

How the results depend on the processing

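No call on a member named with a test changed direction under any alternative run. In FRTL5 at 17 h 3 members passed, against 15 with the replicate block, 0 with only the arrays of the groups compared and 5 after quantile normalization, and 0 to 4 when each array was left out. For the difference of the 17 h effects 0 passed, against 2 with the replicate block, 1 without the 3 FRTL5 arrays numbered 1, 1 with the mean of a gene's probe sets, and 0 to 2 when each array was left out. Between the lines at 17 h 12 passed, and 7 to 11 when each array was left out. The cause of these changes was not tested, beyond there being fewer arrays where some were left out. Counts at 30 min and in FRT/TSHR at 17 h were 0 under all alternatives run. Between lines, arrays numbered 2 and 3 do not correlate by number throughout, so the numbers were not taken to pair them. With the replicate block 19 members passed between the basal lines (29.7% of all probe sets) and 18 between the lines at 17 h (25.1%), against 15 and 12 without it (25.5% and 20.4%). Leaving out all 6 arrays numbered 1 left 3 calls in FRTL5 at 17 h, 2 of them among the 3. Centring or quantile normalization moved the median of all probe sets by at most 0.041. The members moved more under quantile normalization. Their median went from 0.21 to 0.09 between the basal lines, with 35 higher, and from -0.12 to -0.25 between the lines at 17 h, with 44 lower. In FRTL5 at 17 h it went from 0.36 to 0.35. Signal over background was not measured, so dim probe sets such as that of Ndufs1 carry an unknown background share.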
